A study of Mus musculus with 12 samples.

Results

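The last exon bin of a gene is the stretch of exon at its 3' end, and it can hold all or part of the 3' untranslated region (UTR). How much of it each bin holds was not examined. Last bins were taken from the exon tables of 2 comparisons by RNA sequencing, Tet1kd against parental and Tet2kd against parental, in V6.5 mouse embryonic stem cells. A gene entered when its row carried a single Ensembl identifier and it had at least 3 bins, and its last bin entered when its mean normalized count was at least 20 in both tables. The tables list 36521 genes, of which 20252 met the conditions on genes, and 19272 of those had a strand in GENCODE M21. Of these 19272 last bins 6438 (33.4%) passed the limit and 12834 (66.6%) did not, among them 5720 with a count of 0 in both tables. The 6438 last bins, of 366995 bins in all, belonged to 6365 protein-coding genes and 73 genes of other types, 3199 on the plus strand and 3239 on the minus strand. The rule used the level of a bin over all libraries and not its difference between groups, so the levels below are a description.

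Parental cells received no vector, per the labels. Tet1kd and Tet2kd cells were V6.5 cells that had been electroporated with pSUPER-puro vectors coding for a short hairpin RNA against Tet1 or Tet2, selected with puromycin on SNL76/7-4 feeder cells and picked as clones. All cells were kept in serum with LIF, and each of the 3 groups held 4 libraries of RNA that had gone through 2 rounds of poly(A) selection. There was no group with a non-targeting hairpin or a bare vector, and a knockdown cannot be told apart from what electroporation, puromycin and cloning did to the cells. The number of clones behind each knockdown is not stated, so the p-values may measure the spread within few clones. The same 4 parental libraries served both comparisons, which are therefore not independent.

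Messenger RNAs are cut and polyadenylated downstream of a signal, most often AATAAA or ATTAAA in the DNA, by a complex that includes the CPSF, CstF and CFI proteins. Many genes have more than one such end, and the choice between them sets the length of the 3' UTR, which carries the sites for microRNAs and for RNA-binding proteins. Exon use is the level of a bin relative to the other bins of its gene, so a gene can rise or fall as a whole with no difference in the use of any bin.

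Of 6356 last-bin genes with a protein-coding transcript in GENCODE M21, 79.6% had AATAAA or ATTAAA within the last 40 bases of the transcript that ends farthest downstream, against 70.3% of 21832 protein-coding genes. The search was made on the transcript strand only, and the hexamer nearest the end was counted. The signals of 11 of the genes on which the results turn are shown first, from the annotated 3' ends of genes whose last bins are described below. Each is at most 30 bases around the signal, in the 3' UTR in the last exon of the GENCODE M21 transcript, 5' to 3', with the signal in capitals.

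Mkrn1: gcacttttcccaAATAAAacgatttaaaaa
Mybl2: agccaagttgacAATAAAgagtaacacatt
Srsf7: ttaagtttgttcAATAAAtctgcagagatt
Trip12: gactatatttttAATAAAcagcattatcct
Wapl: aattttaactcaAATAAAattgatacttta
Bclaf1: ttgtcatatgccAATAAAatgtcctaagtg
Tet2: gtgagtgtttttAATAAAatttatatttat
Myh9: actgagcgtcacAATAAAgagtaccatgtc
Jam2: tacttaggaattAATAAAacattgtattct
Ncaph2: gtgtctatttacAATAAAttgttctttata
Ddx39: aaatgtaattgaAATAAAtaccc

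In GRCm38, the build of GENCODE M21, these stretches lie at chr6:39397815-39397844 (Mkrn1, minus strand), chr2:163084656-163084685 (Mybl2, plus), chr17:80200090-80200119 (Srsf7, minus), chr1:84721198-84721227 (Trip12, minus), chr14:34747948-34747977 (Wapl, plus) and chr10:20342468-20342497 (Bclaf1, plus). The others lie at chr3:133463690-133463719 (Tet2, minus), chr15:77760591-77760620 (Myh9, minus), chr16:84825892-84825921 (Jam2, plus), chr15:89372794-89372823 (Ncaph2, plus) and chr8:83726870-83726892 (Ddx39, plus). All 11 hold AATAAA, which lies from 5 bases (Ddx39) to 23 bases (Mkrn1 and Tet2) before the annotated end. The authors' bins were made on another build, so whether a bin stops exactly at these ends was not examined.

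The targeted genes were lower in their own knockdown. Tet1 went from a mean normalized count of 27235 in parental cells to 6860 in Tet1kd cells, 25.2% of parental, in the authors' deposited table (DESeq adjusted p = 1.19e-68). Tet2 went from 7837 to 3992 in Tet2kd cells, 50.9% of parental, in the authors' deposited table (DESeq adjusted p = 3.08e-30). The last bin of Tet1 had a count of 0 in both tables and is among those left out, while the last bins of Tet2 and Tet3 passed the limit. Genes that mark feeder fibroblasts moved as well. Their summed level over a list of 12 was 65.6% of parental in Tet1kd cells, with 11 genes lower and none higher past the DESeq threshold, and 107.5% in Tet2kd cells, with 3 higher and 1 lower. Lum was the lowest of them, at 18.6 in parental and 0.414 in Tet1kd cells in the authors' deposited table. The sum rests largely on Vim, at 5827 of 11371 in parental and 4202 of 7464 in Tet1kd cells. Single genes fell by unlike amounts in Tet1kd cells, Dcn from 243 to 7.71, Mmp3 from 169 to 15.9 and Col1a1 from 1632 to 1317, in the authors' deposited table. A list of 8 stem cell markers summed to 126.8% and 100.2% of parental, with 4 and 1 genes higher and none lower. These counts are to be read beside all genes tested, at a DESeq adjusted p under 0.05. Of those 15.2% were higher and 15.3% lower in Tet1kd, and 3.85% and 3.29% in Tet2kd. Among genes with a tested last bin 50.2% were called in Tet1kd and 12.6% in Tet2kd, in either direction. In RNA from whole cultures a shift in the mix of cells and a shift within cells cannot be told apart, and the part of feeder RNA in the results below was not tested.

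The last bins were well covered. Their mean normalized count had a median of 269 in the Tet1kd table (range 20.01 to 39168) and of 244 in the Tet2kd table (range 20.09 to 37010). The genes had a median of 14 bins, from 3 to 116. A last bin held a median of 40.7% of its gene's mean count in the Tet1kd table and 40.9% in the Tet2kd table. Just inside the limit lay Nrtn, at 20.01 and 24.4, and E130311K13Rik, at 29.2 and 20.09, in the Tet1kd and Tet2kd tables. Just outside lay Zfp935, at 23.7 and 19.998, and Rims2, at 19.9 and 20.5. None of these 4 bins was called in either comparison. The authors' tables gave an adjusted p for 6371 of the 6438 last bins in Tet1kd and for 6375 in Tet2kd. The 67 and 63 bins without one came from genes with a median of 4 bins, in which the last bin held 96.3% and 96.6% of the gene's mean.

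When last bins were called, they were mostly higher in the knockdown. A bin is called here when its adjusted p from the authors' DEXSeq test is under 0.05. In Tet1kd cells 495 of 6371 last bins (7.77%) were called, 412 higher and 83 lower than in parental cells. In Tet2kd cells 530 of 6375 (8.31%) were called, 491 higher and 39 lower. Over all bins with an adjusted p the share called was 2.56% in Tet1kd (1.15% higher and 1.41% lower) and 2.45% in Tet2kd (1.07% higher and 1.38% lower). Over all bins with a mean count of at least 20 in both tables it was 4.44% (2.05% higher and 2.39% lower) and 4.36% (1.94% higher and 2.42% lower). Higher calls thus made up 83.2% and 92.6% of the called last bins, and 46.2% and 44.6% of all called bins at that level. Among called last bins with a deposited log2 size of at least 0.5 the direction turned in Tet1kd, with 5 higher and 9 lower, while 2 were higher and none lower in Tet2kd. Bins of a gene share reads and all bins share the libraries, so these shares describe the tables and carry no test of their own.

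The sizes were small, and the tables hold neither standard errors nor values per library. The deposited log2 value is turned here so that a positive value means higher use in the knockdown. Its median over all tested last bins was 0.02 in Tet1kd and 0.03 in Tet2kd, and 62.8% and 70.1% of last bins were above 0. Over all bins at the same level the medians were -0.006 and -0.004, and 47.9% and 48.5% were above 0. Called higher bins had a median of 0.13 in Tet1kd and 0.11 in Tet2kd, and called lower bins -0.20 and -0.16. The scale of these values was checked on 6358 last bins through the parental share of a bin in its gene, which can be computed from either table. The 2 shares differed least, by a median of 0.009 on the log2 scale, when the deposited value was multiplied by 2, and by 0.021 when it was used as deposited. In the 1180 bins with a mean count over 1000 a factor of 1.5 did about as well (0.0074, against 0.0077 for a factor of 2 and 0.0092 as deposited). Sizes are therefore printed as deposited and may be about 50% of the log2 difference in level, and shares of a gene given below are estimates that use the factor of 2, which is least certain in those well-covered bins.

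**Figure D1:**
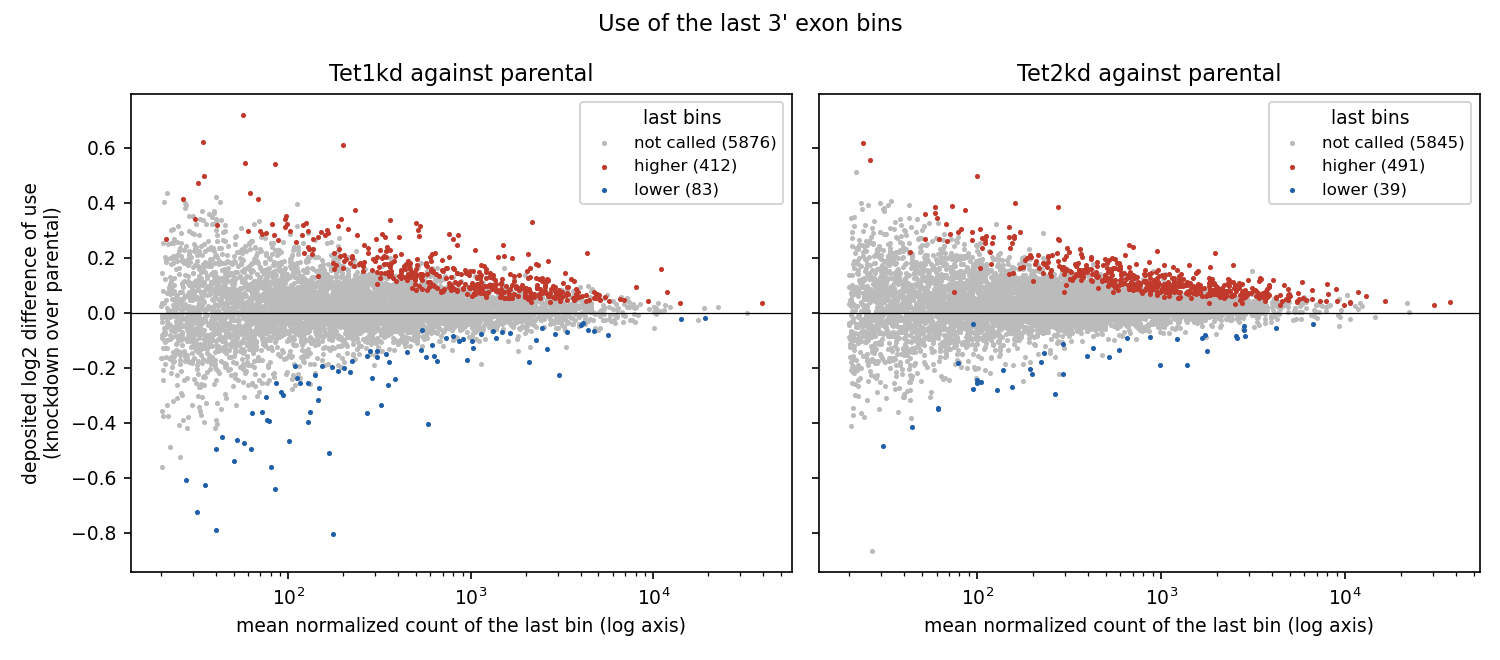
Deposited log2 difference of use (knockdown over parental) of each tested last bin against its mean normalized count on a log axis, for Tet1kd (left) and Tet2kd (right). Red points are the 412 and 491 bins called higher, blue points the 83 and 39 called lower, and grey points the bins not called, with called bins nearer to 0 where counts are larger.

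The surplus of higher over lower calls among last bins was seen mainly in well-covered bins. With a mean count of 20 to 50 there were 7 higher and 6 lower calls in Tet1kd, and 3 and 2 in Tet2kd. From 50 to 100 the calls were 16 higher and 14 lower in Tet1kd and 17 and 6 in Tet2kd, and from 100 to 300 they were 49 and 22, and 56 and 12. From 300 to 1000 they were 142 and 20 in Tet1kd and 184 and 7 in Tet2kd. Over 1000 they were 198 and 21, and 231 and 12. The share of last bins called rose over these levels from 1.54% to 18.6% in Tet1kd and from 0.517% to 22.4% in Tet2kd. In Tet1kd the directions were thus about even below a count of 100, while above 300 higher calls outnumbered lower ones at least 7 to 1 in both knockdowns.

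Inner bins, which are neither the first nor the last of their gene, were called in the other direction over most levels. Of 77033 tested inner bins in Tet1kd 1225 were higher and 1824 lower, so that 40.2% of the called bins were higher. In Tet2kd 1128 were higher and 1942 lower of 77088, or 36.7%. Inner bins with a mean count over 1000 departed from this, with 56.7% of called bins higher in Tet1kd and 64.9% in Tet2kd. Last bins of the same level had 90.4% and 95.1%. From 20 to 50 the higher share of called inner bins was 23.3% in Tet1kd and 25.4% in Tet2kd. Called last bins, only 13 and 5 at that level, had 53.8% and 60%. The higher share thus rose with the count in inner bins as well. Use is relative within a gene, so higher use of a last bin by itself lowers the use of other bins. The directions of last and inner bins are therefore not separate results. First bins were fewer, with 34 higher and 37 lower of 1318 in Tet1kd and 13 higher and 39 lower of 1318 in Tet2kd.

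**Figure D2:**
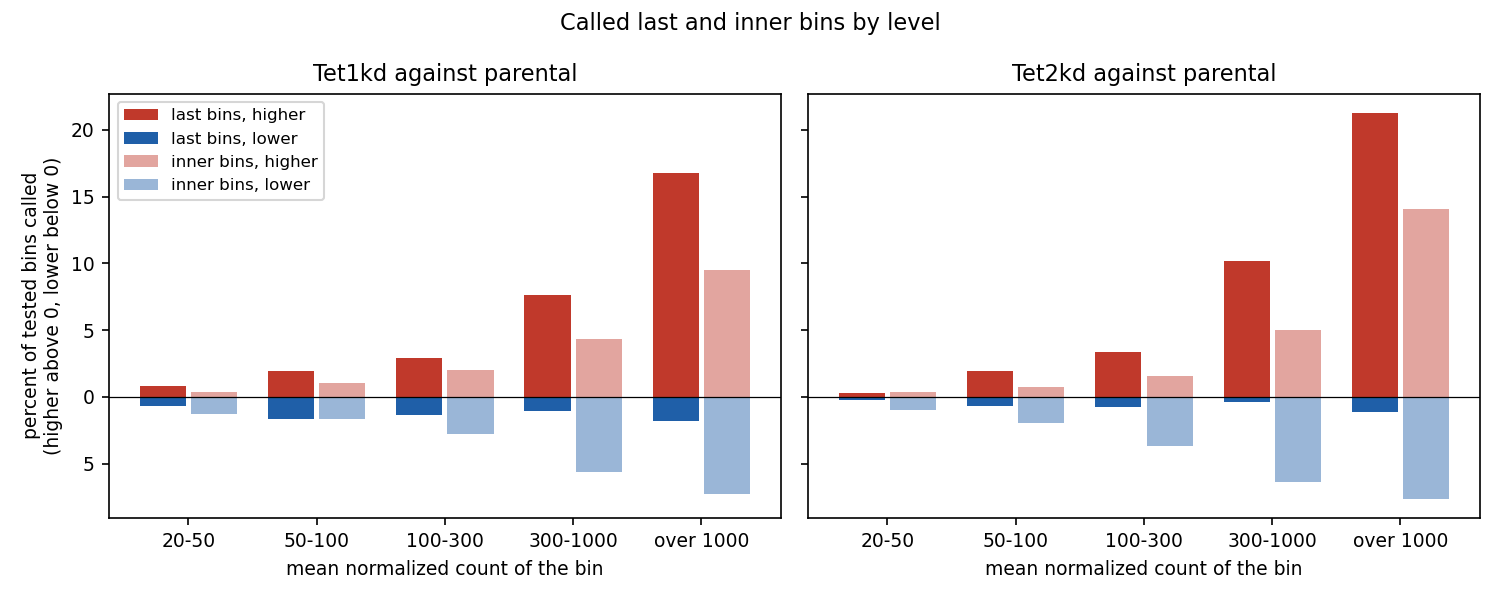
Percent of tested bins called higher (bars above 0) and lower (bars below 0) by mean normalized count, for last bins (full colour) and inner bins (pale). The bars of last bins stand mostly above 0 at counts over 300, with 198 higher and 21 lower calls over 1000 in Tet1kd and 231 and 12 in Tet2kd, while pale bars reach below 0 at every level.

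From the second decile of the bins on, values rose along the gene to the last bin. In genes of at least 10 bins the median log2 difference was -0.03 in the first decile and -0.04 in the second in both knockdowns, and from there it rose with each decile to 0.03 in Tet1kd and 0.04 in Tet2kd in the last. In the first decile 31.2% of called bins were higher in Tet1kd and 11.2% in Tet2kd, and in the second 18.4% and 9.52%. In the last decile, which holds more bins than the last bin alone, 609 bins were higher and 108 lower in Tet1kd (84.9% higher), and 682 and 71 in Tet2kd (90.6%). Counted bin by bin from the 3' end of these genes, 86.3% of called last bins were higher in Tet1kd, then 77.8%, 69.2%, 55.2% and 52.1% in the bins before. The same steps in Tet2kd were 93.7%, 82.4%, 72.7%, 57.3% and 48.2%. The share called was also largest at the very end, at 9.66% and 9.91%, against 5.37% and 6.16% one bin before. RNA integrity and coverage along transcripts are not given for the libraries. Their part in this rise, and in the surplus of higher last bins, was not tested.

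**Figure D3:**
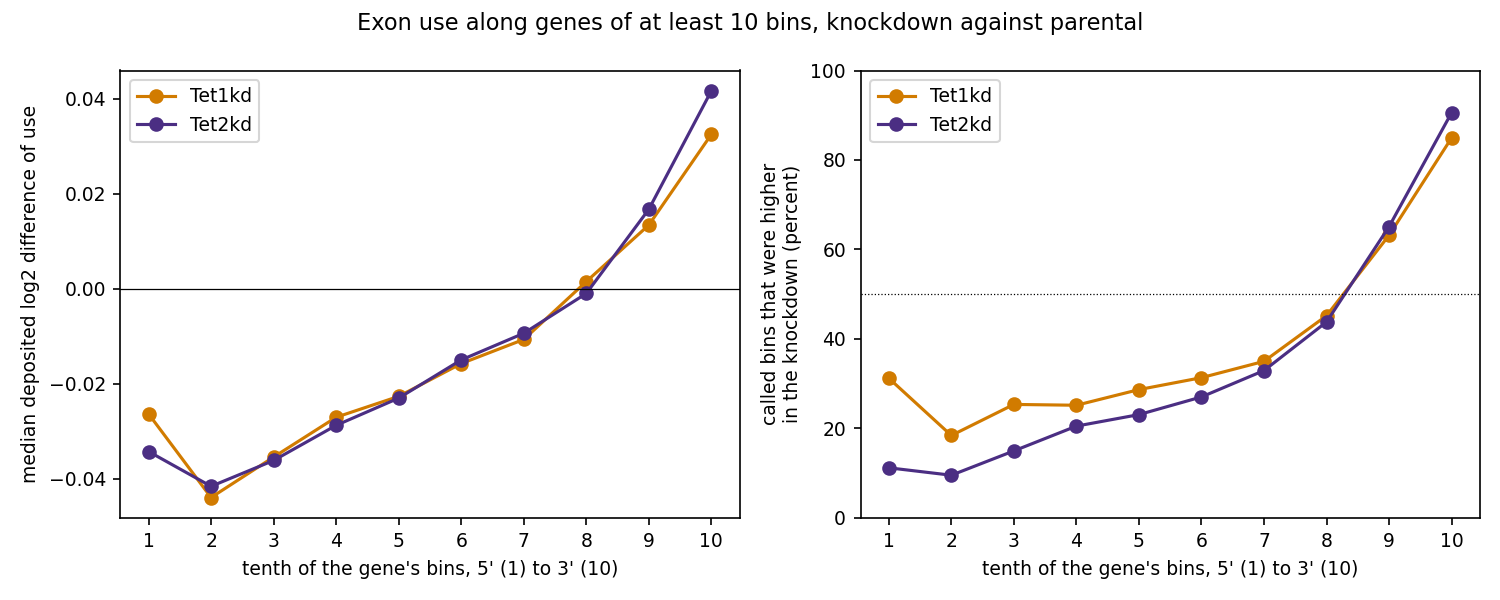
Median deposited log2 difference of use (left) and percent of called bins that were higher in the knockdown (right) by decile of the gene's bins from 5' (1) to 3' (10), in genes of at least 10 bins with a mean count of at least 20. The medians climb from the second decile to the last, and the percent higher goes from 31.2% (Tet1kd) and 11.2% (Tet2kd) in the first decile through 18.4% and 9.52% in the second to 84.9% and 90.6% in the last.

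The bin next to a called higher last bin was itself called in 11.3% of cases in Tet1kd and 11.1% in Tet2kd, against 2.68% and 3.76% next to a last bin that was not called. Of the 412 genes with a higher last bin in Tet1kd the bin next to it was tested in 328, where 25 were higher and 12 lower. Of the 491 in Tet2kd it was tested in 414, with 23 higher and 23 lower. Genes with a called last bin are also better covered, and these shares are not matched for the count. First bins of these genes were lower more often than higher, with 4 higher and 11 lower of 114 in Tet1kd and none higher and 18 lower of 158 in Tet2kd. Genes with a lower last bin in Tet1kd had the reverse at their first bin, with 4 higher and none lower of 22. Use is relative within a gene, so the values at its ends are not independent of each other.

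The whole gene was often called at the gene level in Tet1kd, whatever its last bin did. Of all genes tested 30.4% were called by the authors' DESeq test in Tet1kd (15.2% higher and 15.3% lower) and 7.14% in Tet2kd (3.85% higher and 3.29% lower). The share was 50.2% and 12.6% over the genes with a tested last bin, which are expressed above the limit. Of the 412 genes with a higher last bin in Tet1kd 95 were higher, 124 lower and 193 not called as whole genes. Of the 83 with a lower last bin 12 were higher, 26 lower and 45 not called. In Tet2kd the 491 genes with a higher last bin had 22 higher, 52 lower and 417 not called, and the 39 with a lower last bin had 2, 3 and 34.

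Of the 412 higher last bins in Tet1kd 15 have an adjusted p from DEXSeq that is listed as 0 in the authors' deposited table. The 6 of them with the highest counts belong to Mkrn1, Mybl2, Pias2, Srsf7, Trip12 and Wapl. Mkrn1, a RING-type ubiquitin ligase, had a log2 difference of 0.33 at its last bin (mean count 2149) in the authors' deposited table. Its last bin went from an estimated 16.7% of the gene's mean in parental cells to 26.3% in Tet1kd cells. The bin next to it was also higher (0.16, DEXSeq adjusted p = 0.000227 in the authors' deposited table), and 3 bins further upstream were lower. The gene as a whole was lower, from 11531 to 9029, in the authors' deposited table. In Tet2kd the last bin of Mkrn1 was higher by 0.17 (DEXSeq adjusted p = 2.58e-13 in the authors' deposited table).

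Mybl2, a cell cycle transcription factor, had 0.22 at its last bin (mean count 4353) in Tet1kd in the authors' deposited table, an estimated 20.5% of the gene's mean in parental and 27.7% in Tet1kd cells. None of its other 20 tested bins with a mean count of at least 20 was higher and 3 were lower, and the gene as a whole rose from 15234 to 20150. In Tet2kd the same bin was lower by 0.09 (DEXSeq adjusted p = 2.9e-05 in the authors' deposited table). It is therefore one of the last bins called in opposite directions in the 2 knockdowns. The other named one is Pa2g4, a regulator of growth and ribosome assembly, at 0.06 in Tet1kd (DEXSeq adjusted p = 0.00428) and -0.08 in Tet2kd (DEXSeq adjusted p = 9.97e-05) in the authors' deposited table. Whether the 2 knockdowns differed at these bins was not tested, since the tables hold no comparison of Tet1kd with Tet2kd.

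Srsf7, a serine- and arginine-rich splicing factor, had 0.17 at its last bin in Tet1kd and 0.10 in Tet2kd (DEXSeq adjusted p = 0.0182) in the authors' deposited table. In Tet1kd 3 of its other 8 tested bins were lower and none was higher. Trip12, a HECT-type ubiquitin ligase of 41 bins, had 0.14 in Tet1kd and 0.13 in Tet2kd (DEXSeq adjusted p = 1.81e-12) in the authors' deposited table. None of its other 38 tested bins lay above its last bin in Tet1kd, and 3 did in Tet2kd. Wapl, which releases cohesin from chromatin, had 0.20 in Tet1kd and 0.09 in Tet2kd (DEXSeq adjusted p = 0.00546) in the authors' deposited table. Pias2, a SUMO ligase, had 0.16 in Tet1kd, and its value of 0.04 in Tet2kd was not called. The last bin of Wapl went from an estimated 15.6% of the gene in parental to 20.6% in Tet1kd cells, and that of Srsf7 from 27.9% to 35.5%.

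Larger higher values were found in last bins of lower count. Among higher last bins with a mean count of at least 100 the largest value in Tet1kd was that of Txlng, coding for gamma-taxilin, at 0.61 (DEXSeq adjusted p = 2.68e-13) in the authors' deposited table, an estimated 10.7% of the gene in parental and 25.02% in Tet1kd cells. Rbl1, a pocket protein of the retinoblastoma family, followed at 0.37 (DEXSeq adjusted p = 1.05e-10), from an estimated 16.2% to 27.2%, in the authors' deposited table. Agps, an enzyme of ether lipid synthesis, had 0.34 (DEXSeq adjusted p = 0.0043), and Hnrnpd, which binds AU-rich elements in 3' UTRs, also had 0.34 (DEXSeq adjusted p = 7.91e-12) in the authors' deposited table. The values of these 4 in Tet2kd were positive but not called. The last exon of Txlng is overlapped by an exon of Rbbp7 on the other strand, and Rbbp7 went from 7311 to 5028 in Tet1kd cells in the authors' deposited table. Whether counting used the strand is not stated, and the part of reads from the other strand was not tested.

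Lower last bins in Tet1kd were fewer, and the largest differences among them were larger. Ddx39, an RNA helicase of messenger RNA export, had -0.81 (DEXSeq adjusted p listed as 0) in the authors' deposited table. Its last bin went from an estimated 4.15% of the gene in parental cells to 1.36% in Tet1kd cells. The bin next to it, at a mean count of 19.6 just under the limit, had -0.71 (DEXSeq adjusted p = 0.0308) in the authors' deposited table. Ncaph2, a condensin II subunit, had -0.40 and an estimated 21.4% against 12.2%, and Jam2, a junctional adhesion molecule, had -0.23 and an estimated 50.3% against 36.6%, with an adjusted p listed as 0 for both in the authors' deposited table. In Jam2 4 of the other 12 tested bins were higher, 3 of them the first 3 of the gene. None of the other tested bins of Ddx39, Ncaph2 or Jam2 lay below the last bin in Tet1kd. In Tet2kd the last bins of Ddx39 (-0.15), Ncaph2 (-0.03) and Jam2 (-0.03) were not called in the authors' deposited table.

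Morc1, a gene of transposon silencing in germ cells, had -0.36 (DEXSeq adjusted p = 6.72e-12) in Tet1kd, and the bin next to its last had -0.29 (DEXSeq adjusted p = 0.00922) in the authors' deposited table. Agtrap, which binds an angiotensin receptor, had -0.18 (DEXSeq adjusted p = 4.27e-10) while the gene rose from 2886 to 4149 in the authors' deposited table. Lars2, the mitochondrial leucyl-tRNA synthetase, had -0.10 (DEXSeq adjusted p = 8.78e-08) with all 7 other tested bins above its last bin, which held most of the gene, in the authors' deposited table. Ccdc127 had -0.51 (DEXSeq adjusted p = 3.58e-05) and Tinf2, a component of the telomere-capping shelterin complex, -0.47 (DEXSeq adjusted p = 3.82e-06) in the authors' deposited table. An exon on the other strand overlaps the last exon of Ddx39 (Adgre5), Ncaph2 (Sco2 and Tymp) and Ccdc127 (Lrrc14b). Adgre5 went from 1614 to 1269 in Tet1kd cells (DESeq adjusted p = 0.000564), while Sco2, Tymp and Lrrc14b were not called, in the authors' deposited table. Adgre5 was also lower in Tet2kd, from 1482 to 1199 (DESeq adjusted p = 0.0129), in the authors' deposited table. The last bin of Ddx39 was not called there.

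**Figure D4:**
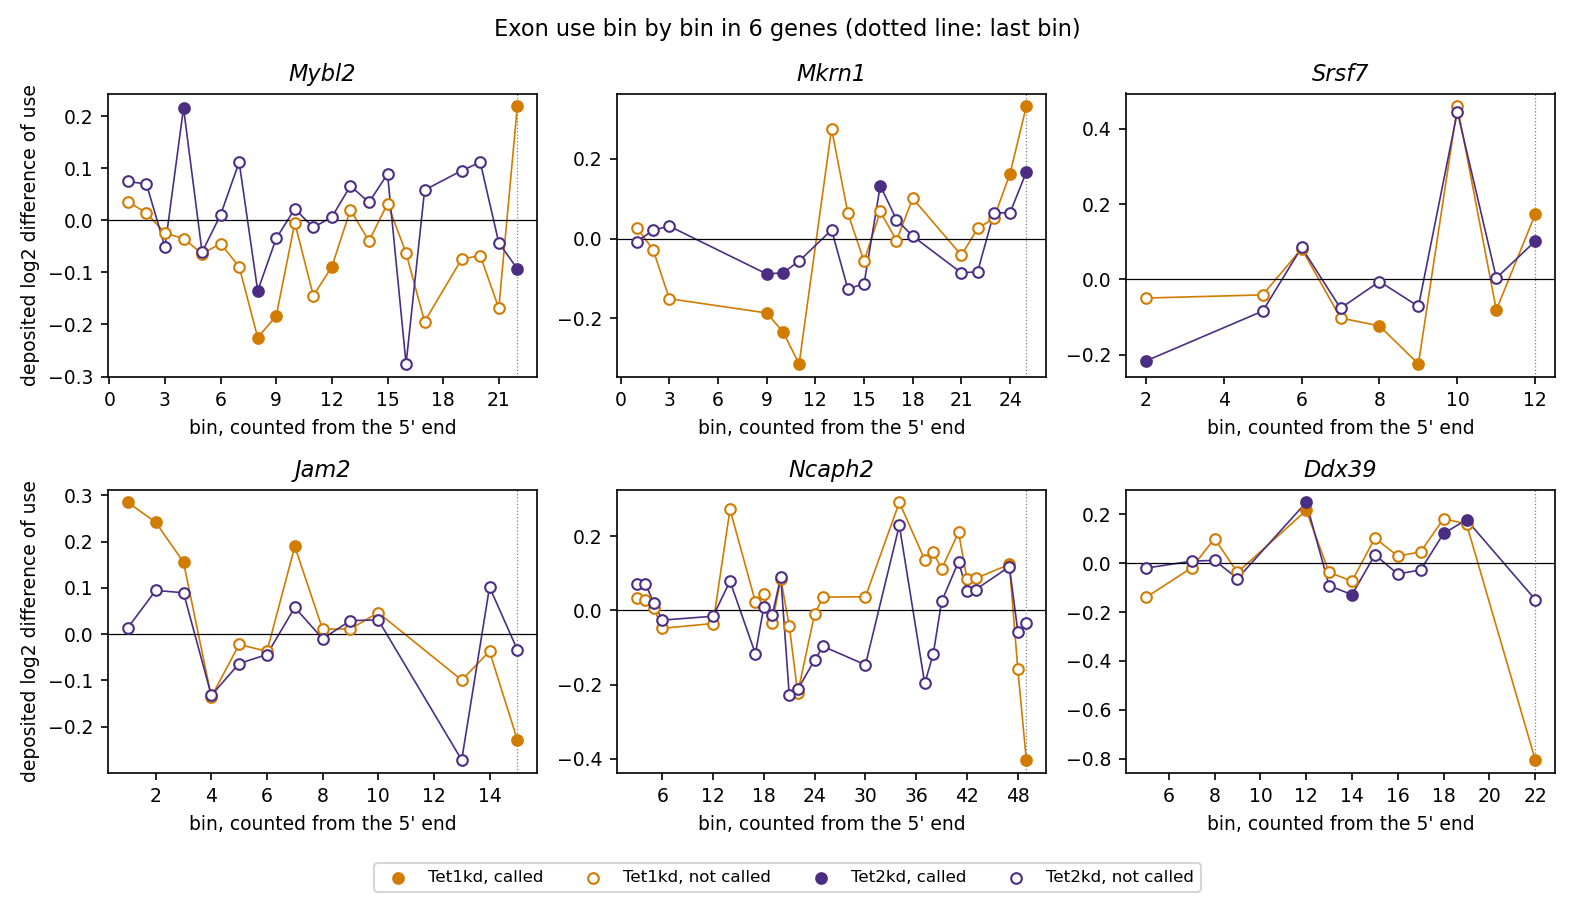
Deposited log2 difference of use of each bin with a mean count of at least 20, in order from the 5' end, for 3 genes with a higher and 3 with a lower last bin in Tet1kd. Orange points are Tet1kd, purple points Tet2kd, filled points are called bins and the dotted line marks the last bin, which is at 0.22 (Mybl2), 0.33 (Mkrn1), 0.17 (Srsf7), -0.23 (Jam2), -0.40 (Ncaph2) and -0.81 (Ddx39) in Tet1kd.

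In Tet2kd the targeted gene itself had one of the higher last bins of smallest adjusted p. The last bin of Tet2 (mean count 1957) had 0.22 with an adjusted p from DEXSeq listed as 0 in the authors' deposited table, an estimated 29.6% of the gene in parental and 39.96% in Tet2kd cells. Of its other 9 tested bins 1 was lower and none higher, and the gene as a whole was at 50.9% of parental. In Tet1kd, where Tet2 was not targeted, its last bin had 0.06 (DEXSeq adjusted p = 0.0384) in the authors' deposited table. Where in Tet2 the hairpin binds is not stated in the labels. The last bin of Tet3, with a mean count of 196 and 129 in the 2 tables, had 0.02 in Tet1kd and -0.001 in Tet2kd and was not called in the authors' deposited table.

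Bclaf1, a regulator of transcription and RNA processing, had 0.17 in Tet2kd with an adjusted p from DEXSeq listed as 0, and 0.18 in Tet1kd (DEXSeq adjusted p = 6.87e-09), in the authors' deposited table. Its last bin went from an estimated 25.4% of the gene in parental to 32.3% in Tet2kd cells and from 24.96% to 32.0% in Tet1kd cells. Ncl, the nucleolar protein nucleolin, had 0.11 in Tet2kd, with an adjusted p listed as 0, and 0.02 in Tet1kd, where it was not called, in the authors' deposited table. Myh9, the heavy chain of a non-muscle myosin, had 0.12 in Tet2kd (DEXSeq adjusted p = 2.58e-13) and also 0.12 in Tet1kd (DEXSeq adjusted p = 1.97e-06) in the authors' deposited table. Zfp598, a ubiquitin ligase that senses collided ribosomes, had 0.25 in Tet2kd (DEXSeq adjusted p = 4.87e-13) in the authors' deposited table. Hnrnpul2, an RNA-binding protein, was called higher in both, at 0.11 in Tet1kd (DEXSeq adjusted p = 5.82e-09) and 0.12 in Tet2kd (DEXSeq adjusted p = 9.92e-10), in the authors' deposited table.

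The largest higher values in Tet2kd at a mean count of at least 100 were those of Map3k4, a kinase of the stress-activated pathway, at 0.40 (DEXSeq adjusted p = 0.000316) and Vrk1, a nuclear serine/threonine kinase, at 0.39 (DEXSeq adjusted p = 4.87e-13) in the authors' deposited table. In Vrk1 6 of the other 11 tested bins were called too, 4 higher and 2 lower, and the gene fell from 3077 to 1710. The ribosomal protein gene Rpl37a had 0.31 (DEXSeq adjusted p = 0.0108), which is uncertain because near-identical copies in the genome can share its reads, and Cox15, an enzyme of heme A synthesis, had 0.30 (DEXSeq adjusted p = 0.014) in the authors' deposited table. An exon of Entpd7 on the other strand overlaps the last exon of Cox15.

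The 39 lower last bins in Tet2kd were led by Ncapd2, a condensin I subunit, at -0.19 (DEXSeq adjusted p = 4e-08) in the authors' deposited table. The bin next to it was lower as well, at -0.13 (DEXSeq adjusted p = 0.000757 in the authors' deposited table). In Tet1kd the last bin of Ncapd2 had the same value of -0.19 but was not called (DEXSeq adjusted p = 0.248) in the authors' deposited table. Rnf138, a ubiquitin ligase, had -0.09 in Tet2kd (DEXSeq adjusted p = 2.4e-06) and -0.10 in Tet1kd, where it was not called (DEXSeq adjusted p = 0.459), in the authors' deposited table. A call and the lack of one are thus no sign that these bins differed between the knockdowns. Naa38, a subunit of an N-terminal acetyltransferase, was lower in both, at -0.22 in Tet2kd (DEXSeq adjusted p = 3.99e-06) and -0.16 in Tet1kd (DEXSeq adjusted p = 0.00204) in the authors' deposited table.

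The largest lower values in Tet2kd at a mean count of at least 100 were those of Tmco6 (-0.29, DEXSeq adjusted p = 0.000446), the intraflagellar transport gene Ift46 (-0.28, DEXSeq adjusted p = 0.00498), Minos1 of the mitochondrial inner membrane (-0.27, DEXSeq adjusted p = 0.00321) and Klhl15, an adaptor of a ubiquitin ligase (-0.25, DEXSeq adjusted p = 0.00603), in the authors' deposited table. Ift46 was also lower in Tet1kd, at -0.36 (DEXSeq adjusted p = 4.55e-05) in the authors' deposited table. Txn1, the redox protein thioredoxin, had -0.13 in Tet1kd (DEXSeq adjusted p = 0.014) and -0.09 in Tet2kd (DEXSeq adjusted p = 0.00428), and the metallothionein gene Mt2 had -0.06 (DEXSeq adjusted p = 0.0188) and -0.04 (DEXSeq adjusted p = 0.00898) in the authors' deposited table. Mt2 belongs to a family of near-identical genes and is uncertain. Exons on the other strand overlap the last exons of Tmco6 (Ndufa2), Naa38 (Tmem88) and Mt2 (Gm45774).

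**Figure D5:**
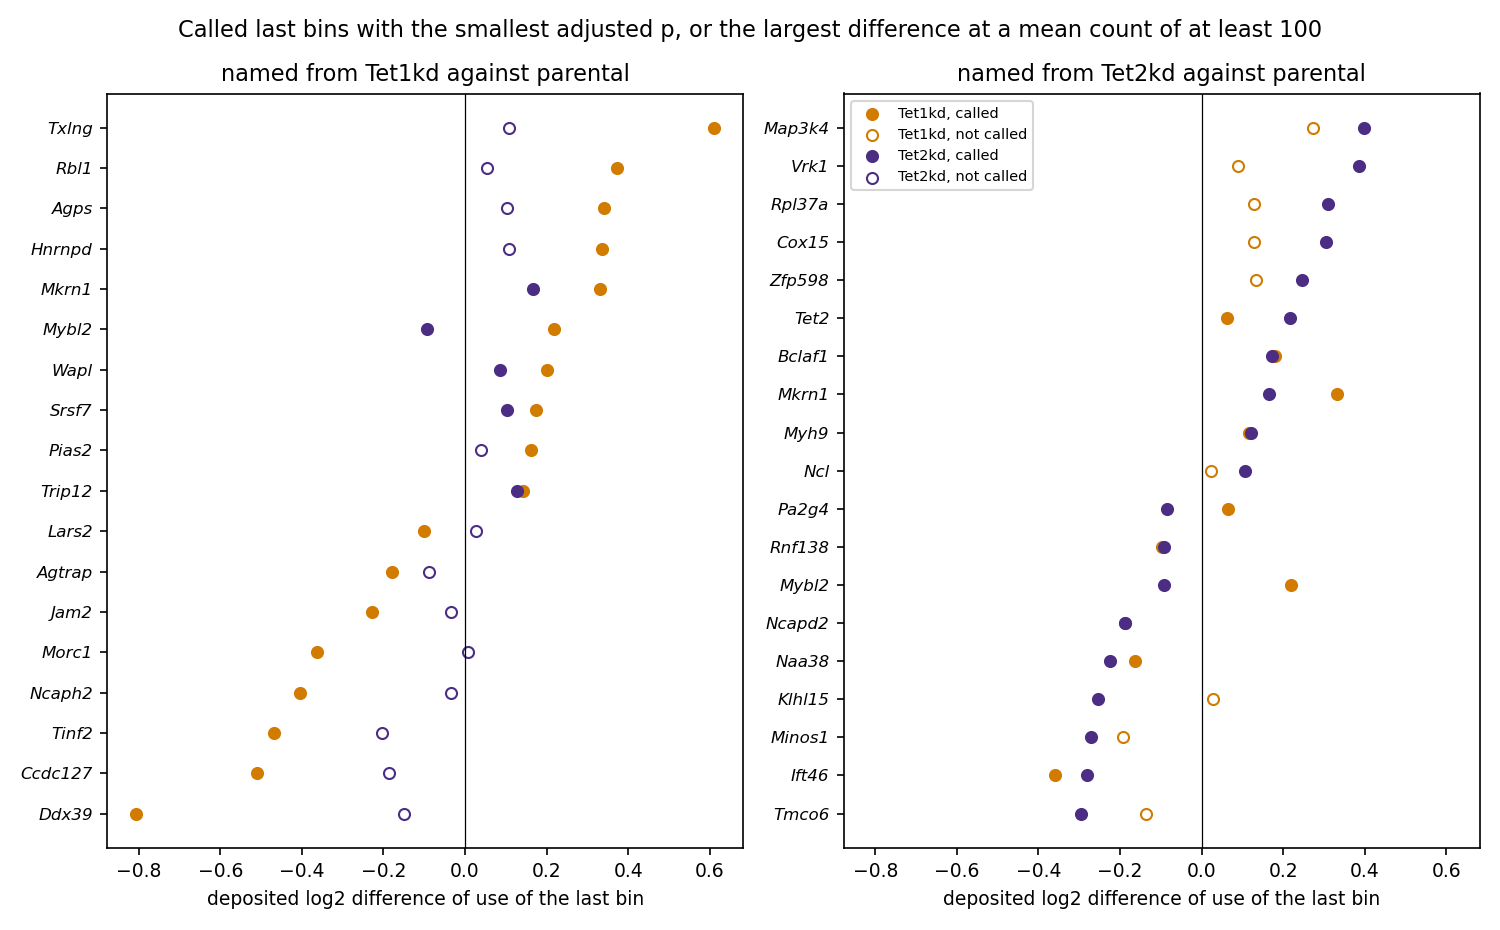
Deposited log2 difference of use of the last bins named from each comparison by smallest adjusted p or, at a mean count of at least 100, by size, with the values of both knockdowns. Orange points are Tet1kd, purple points Tet2kd and filled points are called, and Mybl2 lies at 0.22 in Tet1kd and -0.09 in Tet2kd.

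Each count of members of a gene list is to be read against all tested last bins, of which 6.47% were called higher and 1.30% lower in Tet1kd, and 7.70% and 0.612% in Tet2kd. Over a mean count of 1000, 16.8% and 21.3% of last bins were called higher. A count near these shares is no result about a list. Of 21 members of the list of cleavage and polyadenylation genes 6 were higher (28.6%) and none lower in Tet1kd, and 2 were higher (9.52%) and 1 lower in Tet2kd. The median of the list was 0.05 in Tet1kd and 0.07 in Tet2kd, beside 0.02 and 0.03 over all tested last bins. Fip1l1, a CPSF subunit that contacts poly(A) polymerase, had 0.28 in Tet1kd with an adjusted p from DEXSeq listed as 0 in the authors' deposited table. Cpsf2, a CPSF subunit, was higher in both, at 0.10 in Tet1kd (DEXSeq adjusted p = 8.34e-05) and 0.08 in Tet2kd (DEXSeq adjusted p = 0.016) in the authors' deposited table. Cdk12, a kinase of RNA polymerase II, had 0.55 in Tet1kd (DEXSeq adjusted p = 0.000101) in the authors' deposited table, at a mean count of only 57.8 and 1.29% of its gene's mean. In Tet2kd Ssu72, a phosphatase of RNA polymerase II, was higher (0.13, DEXSeq adjusted p = 0.00223), and Cpsf1, the largest CPSF subunit, was lower (-0.22, DEXSeq adjusted p = 0.00916) in the authors' deposited table. Last exons of Fip1l1, Ssu72 and Cpsf1 are overlapped on the other strand. Lnx1, opposite Fip1l1, went from 184 to 347 in Tet1kd cells in the authors' deposited table (DESeq adjusted p = 6.95e-05), and its part was not tested.

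Of 21 SR and hnRNP splicing factors 3 were higher and 1 lower in Tet1kd (19.05% called), and 2 were higher and none lower in Tet2kd (9.52% called, beside 8.31% of all last bins), with medians of 0.02 and 0.03. Besides Srsf7 and Hnrnpd, Srsf1 was higher in Tet1kd (0.10, DEXSeq adjusted p = 2.73e-05) and Hnrnpc in Tet2kd (0.06, DEXSeq adjusted p = 0.00819) in the authors' deposited table. Tra2b, whose own messenger RNA is spliced in alternative forms, was the lower one in Tet1kd and was named after its value was seen (-0.10, DEXSeq adjusted p = 0.000113, in the authors' deposited table). Of 18 genes that act on 3' UTRs 2 were higher (11.1%) and 1 lower in Tet1kd. In Tet2kd 3 were higher (16.7%) and 1 lower, and the medians were 0.02 and 0.02. Dicer1, which cuts microRNA precursors, had 0.20 in Tet1kd (DEXSeq adjusted p = 4.83e-09), and Khsrp, a decay factor of AU-rich messages, had 0.17 (DEXSeq adjusted p = 0.000188) in the authors' deposited table. Lin28b, which blocks let-7 maturation, was lower in Tet1kd (-0.10, DEXSeq adjusted p = 0.01) in the authors' deposited table. In Tet2kd Cnot6, a deadenylase, was higher (0.10, DEXSeq adjusted p = 0.0016), as was Ago2, the slicing Argonaute (0.03, DEXSeq adjusted p = 0.0189), and Zfp36l1, a decay factor, was lower (-0.19, DEXSeq adjusted p = 0.000602) in the authors' deposited table.

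Of 12 genes of the list of TET enzymes, DNA methyltransferases and base excision repair 3 were higher in Tet1kd and 4 in Tet2kd, and none was lower, with medians of 0.04 and 0.05. Dnmt3a, a de novo DNA methyltransferase, had 0.62 in Tet1kd (DEXSeq adjusted p = 0.0018) in the authors' deposited table, in a bin with a mean count of 34.0 and 1.49% of the gene's mean. Parp1, a poly(ADP-ribose) polymerase, had 0.05 in Tet1kd (DEXSeq adjusted p = 0.0377) in the authors' deposited table. In Tet2kd the maintenance methyltransferase Dnmt1 had 0.13 (DEXSeq adjusted p = 0.00849) and Uhrf2, which binds modified cytosine, 0.16 (DEXSeq adjusted p = 0.005) in the authors' deposited table. Of 13 Polycomb genes 2 were higher (15.4%) and none lower in Tet1kd, and 2 were higher (15.4%) and 1 lower in Tet2kd. Their medians were 0.02 and 0.05. Eed, a core subunit of the complex that methylates histone H3, was higher in both, at 0.08 (DEXSeq adjusted p = 0.00635) and 0.10 (DEXSeq adjusted p = 0.00994) in the authors' deposited table. Rbbp4, a histone chaperone subunit, was lower in Tet2kd (-0.16, DEXSeq adjusted p = 0.0103) in the authors' deposited table.

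Of 17 replication and cell cycle genes 4 were higher (23.5%) and 1 lower in Tet1kd, beside 6.47% higher over all tested last bins. In Tet2kd 3 were higher (17.6%, beside 7.70%) and none lower, and the medians were -0.01 and 0.03. Mcm2, a subunit of the replicative helicase, was higher in both, at 0.09 (DEXSeq adjusted p = 0.00155) and 0.08 (DEXSeq adjusted p = 0.000642) in the authors' deposited table. Cyclin A2 (Ccna2) had 0.09 in Tet1kd (DEXSeq adjusted p = 0.000925) and Cdk2, a kinase that it activates, had 0.06 in Tet2kd (DEXSeq adjusted p = 0.00458) in the authors' deposited table. Of 13 translation factors 2 were higher (15.4%) and 1 lower in Tet1kd. In Tet2kd 1 was higher (7.69%, beside 7.70% of all last bins) and 1 lower, and the medians were -0.02 and 0.04. The elongation factor gene Eef1b2 was the lower one in Tet1kd (-0.26, DEXSeq adjusted p = 3.77e-06), and Eif3a, an initiation factor subunit, was the higher one in Tet2kd (0.09, DEXSeq adjusted p = 1.25e-05), with Eif2s1 the lower one (-0.14, DEXSeq adjusted p = 0.00293), in the authors' deposited table. The last bin of Eef1b2 held only 1.14% of its gene's mean in Tet1kd. Of the other 23 tested bins of Eef1b2 6 were called there, 3 higher and 3 lower.

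Calls in the pluripotency list lay near the share over all last bins. Of 16 members none was called in Tet1kd at the DEXSeq threshold and 1, Fbxo15, was higher in Tet2kd (0.08, DEXSeq adjusted p = 0.0438, in the authors' deposited table), with medians of 0.005 and 0.05. At an unadjusted DEXSeq p under 0.05 the counts were 4 and 7. Of the 21 cleavage and polyadenylation genes 11 were under it in each comparison, and of the 21 splicing factors 6 and 8. The share of all last bins under it is not given here, so such counts are no result about a list. Pou5f1 (Oct4), at a mean count of 1151, had 0.04 in Tet1kd and 0.06 in Tet2kd, and Sall4, at 5396, had -0.004 and 0.05, all not called in the authors' deposited table. None of 9 trafficking and signalling genes with several annotated ends was called in either comparison at the DEXSeq threshold, with 3 and 2 at an unadjusted p under 0.05. Neither was any of the 3 members of a list of textbook alternative last exons, Calca, Cstf3 and Pcf11, with 0 and 2 at an unadjusted DEXSeq p under 0.05. Of 6 feeder fibroblast markers with a member bin none was called in Tet1kd, with 2 at an unadjusted DEXSeq p under 0.05, while Col1a2, Col3a1 and Vim were higher in Tet2kd in the authors' deposited table (0.14, 0.29 and 0.32).

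The annotated last exons of called and uncalled genes were compared next. The last exon of the farthest-reaching GENCODE M21 transcript had a median of 2209 bases in genes with a higher last bin in Tet1kd, 1855 in those with a lower one and 1550 in those not called. In Tet2kd the medians were 1817, 1072 and 1572 bases. More than one annotated 3' end, over 50 bases apart, was listed for 56.4%, 53.0% and 43.1% of these genes in Tet1kd and for 50.5%, 48.7% and 43.5% in Tet2kd. A signal hexamer was found in 83.9%, 79.5% and 79.4% in Tet1kd and in 84.3%, 79.5% and 79.3% in Tet2kd. Called higher bins were also better covered, with a median count of 937 against 250 in Tet1kd and 919 against 221 in Tet2kd, and their genes had medians of 21 and 20 bins against 13. Within last bins of a mean count over 1000 more than one end was listed for 54.3% of higher and 37.9% of uncalled genes in Tet1kd, and for 47.6% and 37.5% in Tet2kd. The difference in length varied with the count class. In Tet1kd its median in higher against uncalled genes was 1587 against 1372 bases from 100 to 300, 1962 against 1614 from 300 to 1000 and 2532 against 2098 over 1000. In Tet2kd it was shorter in higher genes from 100 to 300 (880 against 1451), and was 1716 against 1651 and 2309 against 2129 in the other classes. More than one end was listed more often for higher genes in each of these 3 classes in both knockdowns. These are descriptions of gene models, and the annotation is not that of the authors' bins.

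For 830 of 6434 last bins (12.9%) an exon on the other strand overlapped the last exon in GENCODE M21. In Tet1kd 49 of these were higher and 16 lower of 824 tested, and in Tet2kd 55 and 12 of 825. Without them 363 were higher and 67 lower in Tet1kd (84.4% higher), and 436 and 27 in Tet2kd (94.2%). Over all called last bins the shares higher were 83.2% in Tet1kd and 92.6% in Tet2kd. The overlap was taken from these gene models and not from the authors' bins. Whether reads from the other strand had a part in the calls was not tested. Of the genes named from the lists, Ago2, Ccna2, Khsrp, Mtf2, Rbbp4 and Zfp36l1 are also overlapped.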

How the data were processed

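RNA was sequenced in 3 groups of 4 libraries. The submitters' processing notes name TopHat2 2.0.0 and SAMtools 0.1.18, the authors' use of DESeq, and the builds mm9 and NCBIM37. The authors deposited group comparisons and no counts per library. Per the file headers, the deposited exon tables (DEXSeq) hold a mean signal per bin (normalized count over 8 libraries, meanBase), a log2 ratio of parental over knockdown, p-values, adjusted p-values and a dispersion score that was not used. The authors' deposited gene tables (DESeq) hold group means, a fold ratio, its log2 value and p-values. Depth per library is unknown from these tables, and no error per bin is given.

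Calls are the deposited adjusted p under 0.05, adjusted over all bins. The log2 sign was turned. Strand, names and transcript ends came from GENCODE M21 (GRCm38). Counts used Python 3.11.15 and pandas 2.3.3, tested on simulated data. The members, lists and tests were chosen with earlier results of these data known. Named genes were the 6 smallest adjusted p and 4 largest sizes (meanBase at least 100) per direction and comparison, up to 4 called in both, and up to 3 per list.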

Additional observations from a re-analysis of the deposited data

How the results depend on the processing

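No paired analysis was possible because the tables hold group means and no columns per library. For the same reason edgeR, DESeq2 and leaving out a replicate were not run, and neither were the alternatives on bin coordinates, since no annotation of the authors' build was used. At an adjusted p of 0.01, 300 (Tet1kd) and 294 (Tet2kd) last bins were called, and 69 of 87 named calls passed while 18 did not. In genes without a gene-level call 238 of 3172 tested last bins were called in Tet1kd. That is 7.50%, against 7.77% of all tested last bins, and 81.1% of those called were higher, against 83.2%. At a deposited log2 size of at least 0.5 there were 14 in Tet1kd, of which 35.7% were higher, which turns the direction, and 2 in Tet2kd, of which 100% were higher. By mean count, from lowest to highest class, the higher share of called last bins was 53.8%, 53.3%, 69.0%, 87.7% and 90.4% in Tet1kd and 60%, 73.9%, 82.4%, 96.3% and 95.1% in Tet2kd. For inner bins it was 23.3%, 37.9%, 43.4% (300 to 1000) and 56.7% (over 1000) in Tet1kd. In Tet2kd it was 25.4%, 28.8%, 29.9%, 44.0% and 64.9%, and 32.1% at an adjusted p of 0.01. Few first bins were called, and their higher share turned to 58.3% (20 to 50) and 62.5% (over 1000) in Tet1kd and 66.7% (20 to 50) in Tet2kd, and was 13.3% (100 to 300) in Tet2kd. In the first decile of bins it was 6.59% in Tet2kd at a mean count of at least 100, an alternative chosen after seeing the data, against 11.2%. The cause was not tested. Other limits on the mean count, at least 5 bins, leaving out the sex chromosomes, protein-coding genes only and last exons with no exon on the other strand (the last 2 chosen after seeing the data) left both counts within 1.5 times and both shares of higher last bins over 80%.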
